A study of Mus musculus with 2 samples.

Results

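The 10 genes followed here through the cells of a mouse melanoma belong to the interleukin 1 system or are chemokines that bind the receptor Cxcr2. They were chosen by symbol: Il1a, Il1b, Il1rn, Il1r2, Il18, Nlrp3, Casp1, Cxcl1, Cxcl2 and Cxcl3 are 10 of the 14640 genes whose symbols in the deposited count table matched the count matrices. Cells came from subcutaneous tumors of YUMMER1.7, a melanoma line that carries Braf V600E and lacks Cdkn2a, taken 11 days after engraftment into male C57BL/6 mice aged 8 weeks. The hosts were WT or Siah2-/-, lacking a ubiquitin ligase, while the engrafted melanoma line was the same in both. Live CD45+ leukocytes were sorted, a smaller number of CD45- cells was added back, and 1 droplet 3′ library was made for each genotype from its tumors, the number of animals not being given in the sources used here. With 1 library per genotype there is no replicate: no test between genotypes was possible, intervals are 95% and cover counting error only, and host genotype cannot be told apart from tumor pool, library and sequencing lane.

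Interleukin 1α and interleukin 1β are cytokines that act through a shared receptor to start inflammation, mostly from monocytes, macrophages and neutrophils. Interleukin 1β and interleukin 18 are made as inactive precursors and are cut by caspase-1 once an inflammasome, such as that built on Nlrp3, has assembled. The system carries its own brakes: Il1rn encodes an antagonist that occupies the receptor and Il1r2 a decoy receptor that binds the cytokine without signalling. Cxcl1, Cxcl2 and Cxcl3 draw neutrophils through Cxcr2 and are classical targets of NF-κB, as is Il1b. All values here are transcript counts, so that processing and release of the proteins were not measured.

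Several of the genes sit together in the mouse genome. In GRCm38, Il1b (chromosome 2, 129364570 to 129371139) and Il1a (129299610 to 129309972) are both read from the minus strand, with starts 61.2 kb apart. Il1rn is elsewhere on chromosome 2, from 24336853 to 24351494 on the plus strand. On the plus strand of chromosome 5, Cxcl3 spans 90786103 to 90789600, Cxcl1 spans 90891241 to 90893115 and Cxcl2 spans 90903871 to 90905938. Cxcl1 and Cxcl2 start 12.6 kb from each other. The remaining genes are on the plus strand, Il1r2 on chromosome 1 (40074079 to 40125231), Casp1 (5298517 to 5307265) and Il18 (50554827 to 50581840) on chromosome 9, and Nlrp3 on chromosome 11 (59541568 to 59566956). The 120 bases before the RefSeq transcription start of these neighbours are shown because their differences were unlike. Cxcl2 and Cxcl3 were higher in macrophages of the library labelled Siah2-/-, where Cxcl1 did not differ beyond counting error. In CD45-negative cells of that library Cxcl1 was lower, a direction not kept under every setting. All 3 windows hold an identical NF-κB type motif, GGAATTTCC, given in capitals.
Cxcl1, chr5:90891125-90891244, plus strand: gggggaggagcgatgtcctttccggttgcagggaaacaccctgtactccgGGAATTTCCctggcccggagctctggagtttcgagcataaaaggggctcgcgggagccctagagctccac
Cxcl2, chr5:90903779-90903898, plus strand: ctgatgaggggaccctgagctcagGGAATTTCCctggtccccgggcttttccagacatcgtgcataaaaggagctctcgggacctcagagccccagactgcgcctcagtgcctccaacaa
Cxcl3, chr5:90785981-90786100, plus strand: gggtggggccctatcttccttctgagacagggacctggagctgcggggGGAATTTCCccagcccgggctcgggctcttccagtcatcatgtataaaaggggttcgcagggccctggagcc
The motif begins 70 bases before the RefSeq start in Cxcl1, 96 in Cxcl2 and 72 in Cxcl3. The gene spans above are from GENCODE and start elsewhere, so the windows of Cxcl1 and Cxcl2 end inside those spans. Searched on both strands, it occurs in 104 of 32851 RefSeq promoter windows of 300 bases in GRCm38.p6, or 0.317%. All 10 genes had such a window, and 3 of the 10, these chemokines, held the motif. The motif was chosen after the sequences had been seen, and a match is a description of letters, not evidence of binding. Of the words of 50 bases in their transcripts, 126 were shared by Cxcl2 and Cxcl3 and 0 by Cxcl1 with either. A read wholly within bases shared by Cxcl2 and Cxcl3 could not be assigned to a gene. Whether this affected their counts was not tested.

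Analysis covered 4512 WT cells and 5563 cells labelled Siah2-/-, with a median of 11439.5 and 8700 unique molecular identifiers (UMIs) per cell. The libraries shared 34 cell barcodes. Siah2 itself was counted in macrophages of both, at 11.9 and 10.1 CPM (the UMIs of a gene scaled to a total of 1000000 in the class), and these 3′ counts do not check the genotype label. Cells were put into classes by markers that include none of the 10 genes. Macrophages, high in C1q genes and Csf1r, came to 1685 and 1423 cells. They were split by their leading marker list into states, of which 5 are given here: Mgl2 and MHC class II (467 and 308), resident-like (402 and 141), interferon-induced (310 and 211), monocyte-marker (179 and 120) and cycling (237 and 105). Values over all macrophages include every state. Of these macrophages, 24.2% and 26.3% lay near a cut between states, so the states are ranges. Myeloid cells low in C1q were either monocyte-like (153 and 444) or of other kinds (255 and 540). The other kinds were a remainder whose make-up differed between the libraries. The DC markers Flt3 and Xcr1 were found in 15.7% and 5.49% of them in WT and in 7.96% and 1.30% in the library labelled Siah2-/-. No weighting for this was made. DC (65 and 116) had Ccr7, a marker of mature DC that the gate used, in 60.0% and 62.9%. Xcr1, also used by the gate, was found in 18.5% and 0.862% of them, so the DC of the libraries differed in make-up. T cells (750 and 1849), NK cells (406 and 663) and stromal or tumor cells called CD45-negative (769 and 150, or 17.0% and 2.70% of each library) completed the classes used. The last were gated on collagen genes, and 13.5% and 27.3% of them had a UMI of Ptprc, which encodes CD45, while summed melanoma markers had a median of only 1.35 and 1.10 UMIs per 10000. Barcodes with both lymphoid and macrophage markers (338 and 325) were set aside.

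**Figure D1:**
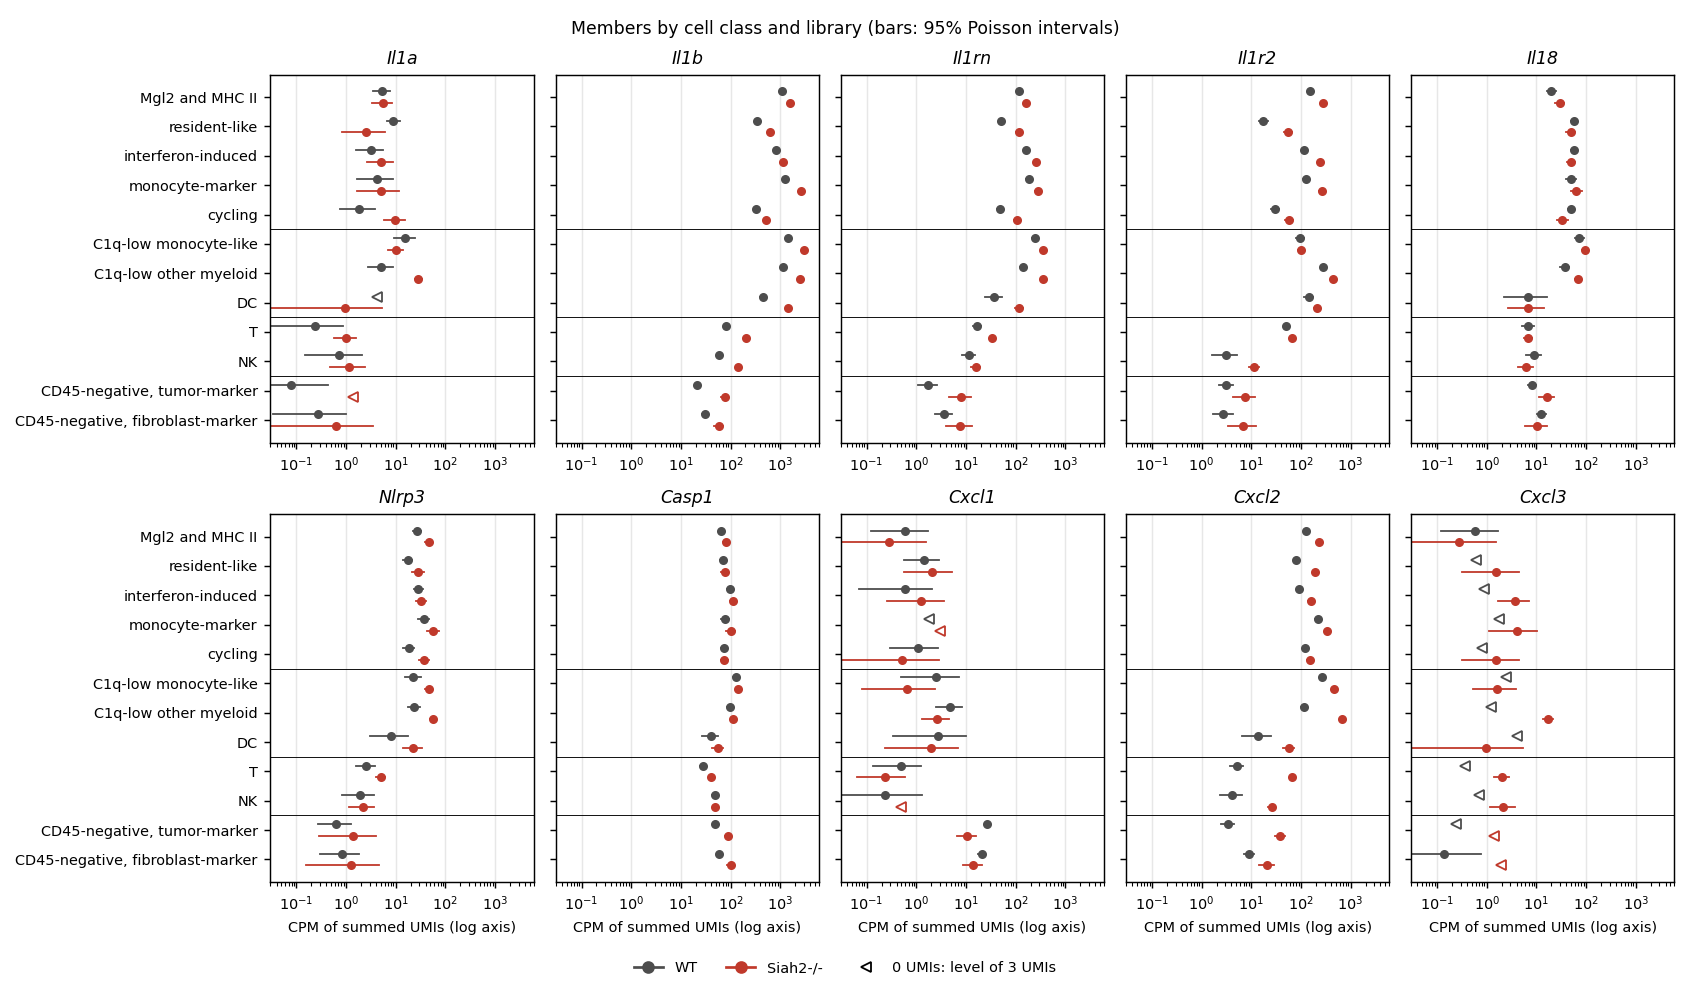
Level of each of the 10 genes (CPM of summed UMIs, log axis) in 12 cell classes, WT in grey and the library labelled Siah2-/- in red, 1 library each; bars are 95% Poisson intervals, cut off at the left edge, and an open triangle marks a class with 0 UMIs at the level of 3 UMIs. Il1b, Il1rn and Il1r2 were highest in myeloid cells, Cxcl1 in CD45-negative cells, and Casp1 was spread over all classes.

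Il1b was a transcript of monocyte-like and other myeloid cells in both libraries, and it was higher in the library labelled Siah2-/- in each of them. In WT its level ran from 319 CPM in cycling and 339 in resident-like macrophages, through 1071 in Mgl2 and MHC class II macrophages, to 1447 (1380 to 1515) in C1q-low monocyte-like cells. In the library labelled Siah2-/- the same classes read 530, 613, 1577 and 3071 (3009 to 3133) CPM. Cycling and resident-like macrophages were thus the lowest of these classes and monocyte-like cells the highest in both libraries. Over all macrophages the level was 720 CPM (709 to 732) in WT against 1414 (1396 to 1432) in the library labelled Siah2-/-, a log2 ratio of 0.97 (0.94 to 1.00). It was higher in 5 of 5 macrophage states given here, by log2 ratios from 0.43 in interferon-induced to 1.03 in monocyte-marker macrophages. The mix of states differed between the libraries, and with the states weighted as in WT the log2 ratio over macrophages was 0.68. Most single cells carried it. At 2000 UMIs per cell, 55.3% of WT macrophages and 76.2% of those labelled Siah2-/- had an Il1b UMI, and unthinned shares were 79.3% and 94.4%. NK cells, which should lack it, had 5.17% and 11.3% at equal depth, with median depths of 9309.5 and 7932 UMIs beside 10648 and 10733 in macrophages. In DC, whose make-up differed between the libraries, the level was 445 CPM in WT against 1434. The log2 ratio was 1.69 (1.52 to 1.87), with 23.5% of the WT UMIs in 1 cell.

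Il1a was low in these classes, and its direction depended on the class. Macrophages read 5.71 CPM in WT against 10.9 in the library labelled Siah2-/-, from 114 and 187 UMIs. The log2 ratio was 0.94 (0.59 to 1.29), and 0.12 with states weighted as in WT. Resident-like macrophages were lower, at 9.01 CPM from 45 UMIs against 2.57 from 5 (log2 ratio −1.81, −3.50 to −0.48), with 15 of the 45 and 3 of the 5 UMIs in 1 cell each. Cycling macrophages were higher, at 1.87 CPM from 7 UMIs against 9.88 from 19 (2.40, 1.09 to 3.90). In the C1q-low other myeloid cells 13 UMIs stood against 135, a log2 ratio of 2.47 (1.65 to 3.42), but 37.0% of the 135 came from 1 cell.

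Il18, the other caspase-1 substrate, did not follow Il1b over all macrophages. Its level in macrophages was 44.4 CPM (41.5 to 47.4) in WT against 37.9 (35.0 to 40.9) in the library labelled Siah2-/-, a log2 ratio of −0.23 (−0.38 to −0.08), which was −0.09 with WT state weights. In WT it was highest in C1q-low monocyte-like cells at 72.9 CPM, near 50 to 57 CPM in resident-like, interferon-induced, monocyte-marker and cycling macrophages, and 20.0 CPM in Mgl2 and MHC class II macrophages, the state in which Il1b was among the highest. Cycling macrophages were lower in the library labelled Siah2-/- (−0.59, −1.02 to −0.17), and C1q-low other myeloid cells were higher, at 37.3 CPM against 67.6 (0.86, 0.52 to 1.20), although the latter ratio was −0.058 among all barcodes with at least 1000 UMIs. Mgl2 and MHC class II macrophages were higher too, at 29.3 CPM (0.55, 0.14 to 0.95). So were C1q-low monocyte-like cells, at 94.0 CPM (0.37, 0.02 to 0.73), but their ratio was −0.62 with classes from clusters. In monocyte-marker (0.34), resident-like (−0.20) and interferon-induced (−0.19) macrophages the intervals held 0. DC held 6.86 and 6.80 CPM, from 5 and 7 UMIs, about the level of T cells (6.81 and 6.84 CPM).

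Both brakes of the system were higher, like Il1b, in macrophages of the library labelled Siah2-/-. Il1rn, the receptor antagonist, read 103 CPM (98.3 to 107) in WT macrophages and 212 (205 to 219) in those labelled Siah2-/-, a log2 ratio of 1.04 (0.96 to 1.12). It was higher in 5 of 5 states, from 0.47 in Mgl2 and MHC class II to 1.17 in resident-like macrophages, and 0.74 with WT state weights. At equal depth 15.6% and 29.2% of macrophages had a UMI, beside 1.48% and 3.17% of NK cells. The highest WT level was in C1q-low monocyte-like cells at 240 CPM, against 351 (0.55, 0.36 to 0.74). With classes from clusters, which left 13 WT cells, that ratio was −0.29. The C1q-low other myeloid cells started lower, at 139 CPM, and read 354 in the other library (1.35, 1.19 to 1.52), so that in the library labelled Siah2-/- these classes no longer differed beyond their counting intervals.

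Il1r2, the decoy receptor, stayed past 2-fold in macrophages when the mix of states was held at that of WT. Macrophages held 82.3 CPM (78.3 to 86.3) in WT against 197 (190 to 203) in the library labelled Siah2-/-, a log2 ratio of 1.26 (1.17 to 1.34), and 1.05 with WT state weights. All 5 of these states were higher, from 0.87 in Mgl2 and MHC class II to 1.67 in resident-like macrophages. Its level was highest in C1q-low other myeloid cells, at 280 and 450 CPM, with a smaller log2 ratio of 0.69 (0.56 to 0.81). In C1q-low monocyte-like cells it read 95.6 and 100 CPM (0.07, −0.24 to 0.39), a difference within counting error in the same cells in which Il1b differed by 1.09. Under other settings these ratios ranged from −0.06 to 0.64 for Il1r2 and from 0.23 to 1.13 for Il1b. T cells carried Il1r2 too, at 50.8 CPM (46.0 to 55.9) in WT against 66.8 (62.9 to 70.7) in the library labelled Siah2-/-, well above NK cells at 3.09 and 11.6 CPM. Split by Foxp3, the regulatory T cell factor, after the values had been seen, the 92 WT T cells with a Foxp3 UMI held 107 CPM (88.4 to 129) and the other 658 held 42.7 (38.0 to 47.7). In the library labelled Siah2-/- the 121 T cells with a Foxp3 UMI held 80.7 CPM (65.8 to 97.8) and the 1728 without held 65.6 (61.7 to 69.8), and these intervals overlap. At 2000 UMIs per cell 8.67% of WT T cells had an Il1r2 UMI, against 0.246% of WT NK cells, at median depths of 9528.5 and 9309.5 UMIs.

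The inflammasome genes split. Nlrp3, the sensor, was a myeloid transcript at 24.1 CPM (22.0 to 26.4) in WT macrophages and 45.4 (42.3 to 48.7) in the library labelled Siah2-/-, a log2 ratio of 0.91 (0.75 to 1.08) and 0.70 with WT state weights. It was above WT in 5 of 5 states, although the interval in interferon-induced macrophages held 0 (0.17, −0.28 to 0.61). Nlrp3 was past 2-fold in both C1q-low classes, with log2 ratios of 1.03 (0.44 to 1.67) and 1.26 (0.84 to 1.69). Casp1, the protease, was spread over all classes. It read 74.5 and 85.9 CPM in macrophages (0.21, 0.10 to 0.31), 130 and 143 in C1q-low monocyte-like cells (0.15, −0.12 to 0.42), and 48.2 and 49.4 in NK cells (0.03, −0.23 to 0.30). T cells were higher, at 27.5 and 40.0 CPM (0.54, 0.32 to 0.77). Its largest difference was outside the leukocytes. CD45-negative cells held 51.3 CPM (48.2 to 54.6) in WT against 95.5 (85.8 to 106) in the library labelled Siah2-/-, a log2 ratio of 0.89 (0.72 to 1.07), with like values in tumor-marker (0.93) and fibroblast-marker (0.82) cells.

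**Figure D2:**
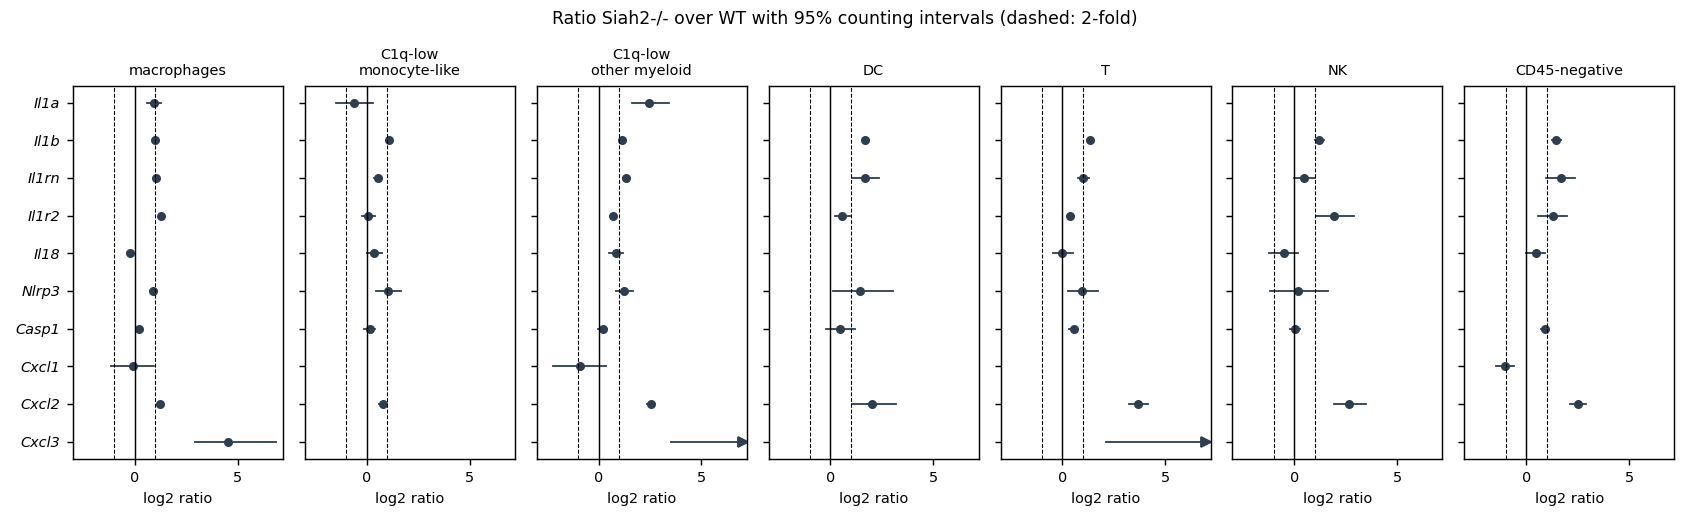
Log2 ratio of the library labelled Siah2-/- over WT for each gene with at least 20 UMIs over both libraries, in 7 classes; points are ratios, bars 95% counting intervals, dashed lines 2-fold, and an arrow starts at the lower bound of a gene with 0 WT UMIs. Il1b, Il1rn and Cxcl2 lay to the right of 0 in all 5 myeloid and T cell panels, while Il18 and Casp1 stayed close to 0 in macrophages and Cxcl1 lay to the left in CD45-negative cells.

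Cxcl2, the most counted of the 3 chemokines here, ordered the C1q-low classes differently in each library. C1q-low monocyte-like cells read 268 and 461 CPM, and monocyte-marker macrophages 218 and 341. In the library labelled Siah2-/- the C1q-low other myeloid cells stood above both, at 661 CPM (638 to 685) against 114 (101 to 127) in WT, a log2 ratio of 2.54 (2.37 to 2.72). Over all macrophages the log2 ratio was 1.21 (1.14 to 1.27), at 131 and 302 CPM. It was 0.72 with WT state weights. Cxcl2 was uneven between cells: at equal depth 11.4% and 22.6% of macrophages had a UMI, beside 0.985% and 4.52% of NK cells, and in the C1q-low other myeloid cells 8.24% and 29.8%.

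Cxcl3 was scarce in the cells analysed, with 16 UMIs in WT against 220 in the library labelled Siah2-/-. The deposited count table lists it at 0 in all WT cells, while the matrix holds those 16 UMIs in 5 cells, and the matrix counts were used. Macrophages had 3 UMIs in WT, all in 1 cell, and 60 in the library labelled Siah2-/-, a log2 ratio of 4.55 (2.93 to 6.86). C1q-low other myeloid cells had 0 and 81 UMIs, at least 14.4-fold higher against a floor of 3 UMIs, with 46.9% of the 81 in 1 cell. Of the 16 WT UMIs 12 were in the set-aside barcodes with lymphoid and macrophage markers, which held 2.08 and 1.08 CPM, from 12 and 6 UMIs.

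Cxcl1 was highest per cell class in CD45-negative cells. They held 83.6% of its 578 WT UMIs and 41.7% of the 108 labelled Siah2-/-, while macrophages held 3.46% and 14.8%. In CD45-negative cells it fell from 24.2 CPM (22.1 to 26.5) to 12.0 (8.75 to 16.1), a log2 ratio of −1.01 (−1.49 to −0.57). Tumor-marker cells read 26.3 and 10.6 CPM (−1.31, −1.99 to −0.70), and fibroblast-marker cells 20.7 and 13.9 (−0.57, −1.28 to 0.08), within counting error. Among all barcodes with at least 1000 UMIs the direction was not kept: the log2 ratio there was 0.14 (−0.08 to 0.36). In macrophages Cxcl1 was near 1 CPM in both libraries (1.00 and 0.935), from 20 and 16 UMIs.

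**Figure D3:**
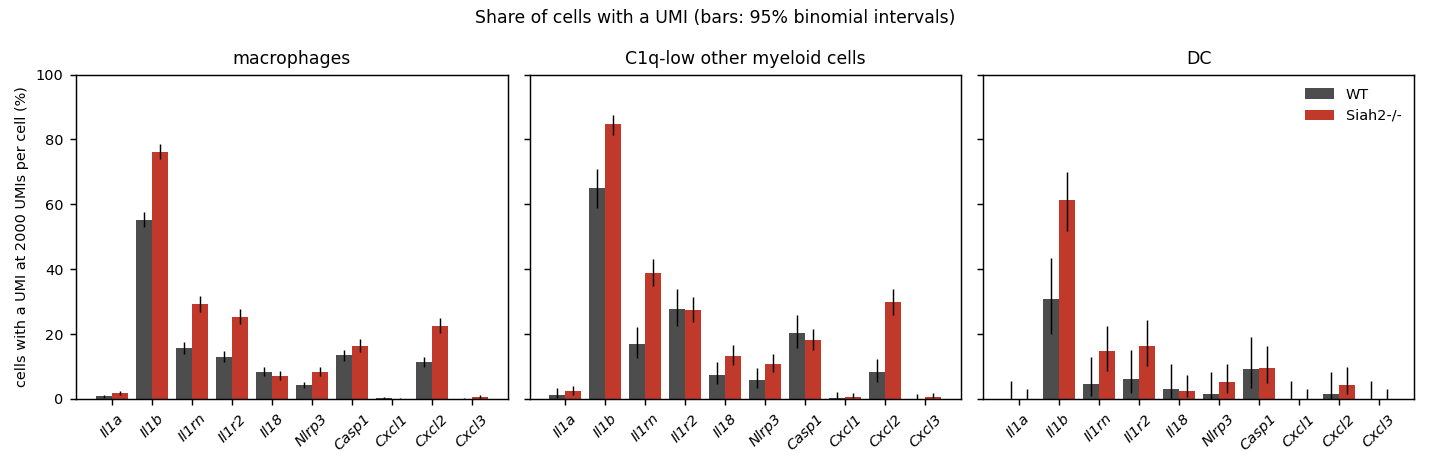
Share of cells with at least 1 UMI of each gene after thinning every cell to 2000 UMIs, in macrophages, C1q-low other myeloid cells and DC; grey bars are WT, red bars the library labelled Siah2-/-, with 95% binomial intervals. Il1b was found in most macrophages (55.3% and 76.2%), whereas Il1a, Cxcl1 and Cxcl3 were found in few cells of any panel.

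Counted over the set, macrophages had 4 of 10 genes past 2-fold higher with an interval off 0 (Il1rn, Il1r2, Cxcl2 and Cxcl3), where 3.91% of all 11527 genes tested did, and 0 past 2-fold lower, where 2.16% did. Il1b, Il1a and Nlrp3, at 0.97, 0.94 and 0.91, lay just inside the threshold. With WT state weights the count was 2, Il1r2 and Cxcl3. C1q-low other myeloid cells, whose make-up differed between the libraries, had 6 of 10 higher, against 4.26% of genes, and 0 lower (3.13%). They were Cxcl3, Cxcl2, Il1a, Il1rn, Nlrp3 and Il1b. Among barcodes with at least 1000 UMIs the count was 5 but Il1b, Il1rn and Nlrp3 fell below 2-fold, at 0.94, 0.65 and 0.93, while Il1r2 (1.01) and Cxcl1 (2.53) passed it. With classes from clusters Il1a was at 0.67. C1q-low monocyte-like cells had 2 of 8 higher, Il1b and Nlrp3, against 2.98%, and 0 lower (1.98%). With the lowest WT UMI count required of both libraries that count was 0, as Il1b and Nlrp3 then had log2 ratios of 0.90 and 0.96. Il1b was at 0.23 with classes from clusters, which left 13 WT cells, and Nlrp3 at 0.49 among barcodes with at least 1000 UMIs. DC had 4 of 6 higher, Il1b, Il1rn, Nlrp3 and Cxcl2, against 5.78%, and 0 lower (3.32%), from 65 and 116 cells of differing make-up. Cxcl2 in DC rested on 10 and 58 UMIs, of which 1 cell held 70.0% in WT, and was lower, not higher, when classes came from clusters. Nlrp3, from 6 and 23 UMIs, then stood at 0.22, and its interval also held 0 with the lowest WT UMI count required.

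Neutrophil markers were also higher in most of these classes. The summed level of 7 neutrophil markers was 63.8 CPM in WT macrophages and 115 in those labelled Siah2-/-, and 27.0 and 81.6 CPM in C1q-low other myeloid cells. Among the 5 macrophage states it ranged from 29.4 CPM in cycling to 148 in resident-like macrophages in WT, and from 48.3 to 221 in the same states labelled Siah2-/-. In T cells it was 8.26 and 56.6 CPM, and in DC 1.37 and 19.4 CPM. In CD45-negative cells it was 55.6 and 45.1 CPM. A UMI of S100a8, an abundant neutrophil transcript, was found in 1.72% and 13.8% of macrophages, whereas Cxcr2, the receptor of these chemokines and a neutrophil marker, was found in 0.297% and 0.492%. Of the same list, S100a9 was found in 1.25% and 4.43% of macrophages and Csf3r in 29.6% and 31.2%. A listed gene was thus common in macrophages of both libraries, and the sum there need not stand for neutrophil RNA. The part of neutrophil RNA in the values of the 10 genes was not tested. Cells led by neutrophil markers were nearly missing from the cells analysed, 0 in WT against 8 in the library labelled Siah2-/-.

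In T cells, NK cells and CD45-negative cells, part of the signal lay at the level of free RNA, the transcripts floating in the cell suspension. Empty droplets held 340 CPM of Il1b in WT against 871 in the library labelled Siah2-/-, and 135 and 420 CPM of Cxcl2. The share of free RNA, set from C1q genes counted in T cells, was 4.07% and 6.57% of a cell's UMIs, which gives 13.8 and 57.2 CPM of Il1b in any cell. CD45-negative cells held 24.8 and 68.5 CPM of Il1b. NK cells held 59.6 and 138 CPM of it, above the estimate in both libraries. For Cxcl2 the estimate was 5.50 and 27.6 CPM, and NK cells held 4.04 and 25.7, CD45-negative cells 5.47 and 30.9. T cells labelled Siah2-/- held more, 64.9 CPM (61.1 to 68.8) against 5.10 in WT, with 10.5% of the UMIs in 1 cell. Il1b in T cells was 80.0 and 203 CPM, above the estimate in both libraries. The median T cell had no Il1b UMI.

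**Figure D4:**
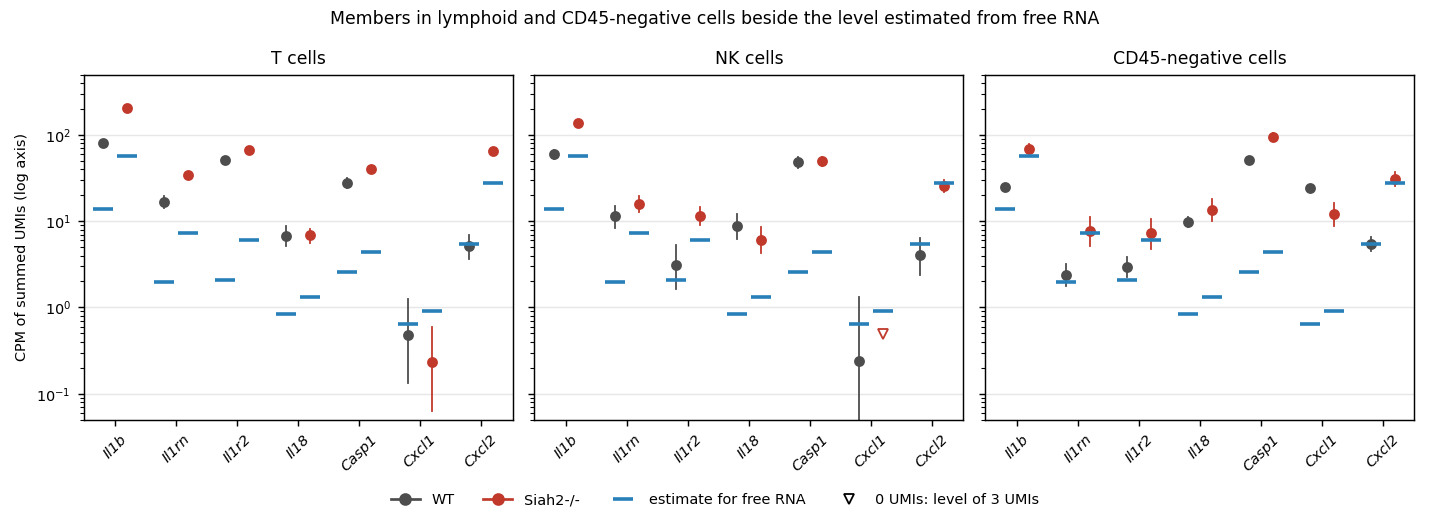
Level of 7 genes (CPM, log axis) in T cells, NK cells and CD45-negative cells, WT in grey and the library labelled Siah2-/- in red with 95% Poisson intervals; blue dashes are the level estimated for free RNA and open triangles mark 0 UMIs at the level of 3 UMIs. Cxcl2 sat on the estimate in NK and CD45-negative cells, while Casp1 was above it in all 3 classes and Cxcl1 above it in CD45-negative cells.

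T cells had 4 of 8 genes past 2-fold higher, against 3.76% of all genes, and 0 lower (2.28%). They were Il1b, Il1rn, Cxcl2 and Cxcl3, and the count was 1, Il1b, after free RNA was subtracted. Il1rn was then below 2-fold, whereas Cxcl2 and Cxcl3 left the count because their WT levels were 0 and gave no ratio, with Cxcl2 labelled Siah2-/- still above its estimate. The mix of lymphoid cells also differed between the libraries. A cluster of T cells held 11 WT cells and 293 labelled Siah2-/-, and another 174 and 171. Clusters of NK cells held 90 and 492 cells, and 309 and 147. NK cells had 3 of 7 higher (Il1b, Il1r2 and Cxcl2), against 3.51%, and 0 lower (0.851%), and 1, Il1r2, after subtraction, where Cxcl2 was 0 in both libraries. CD45-negative cells had 4 of 7 higher (Il1b, Il1rn, Il1r2 and Cxcl2), against 4.05%, and 1 lower, Cxcl1, against 3.3%. After subtraction 0 were higher there, with log2 ratios of 0.05 for Il1b, 0.13 for Il1rn and 0.30 for Il1r2 and no ratio for Cxcl2, whose WT level was 0, while Casp1 read 0.90 and Cxcl1 −1.09.

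Other genes of the pathway were followed from a list. In macrophages 34 of them had enough UMIs, of which 3 were past 2-fold higher, beside 3.91% of all genes, and 0 lower, with a median log2 ratio of 0.02 beside −0.04 over all genes. Il18r1, the ligand-binding chain of the interleukin 18 receptor, had 24 and 63 UMIs (1.62, 0.92 to 2.36), and its partner Il18rap 39 and 77 (1.21, 0.63 to 1.80). Both are mainly lymphocyte transcripts, with T cells at 53.5 and 70.4 CPM of Il18r1. Tnfaip3, which encodes A20, a brake on NF-κB, rose from 13.8 to 29.9 CPM (1.12, 0.90 to 1.33). By list, 2 of 12 receptors and adaptors, 0 of 9 inflammasome genes and 1 of 10 NF-κB regulators were past 2-fold. Of the same list, 2 of 28 genes were past 2-fold higher in C1q-low other myeloid cells (4.26% of all genes), 1 of 30 in T cells (3.76%), 3 of 26 in NK cells (3.51%) and 4 of 31 in CD45-negative cells (4.05%), with 0 lower in each. Pycard, the adaptor between Nlrp3 and caspase-1, read 530 and 495 CPM, and Il18bp, the soluble inhibitor of interleukin 18, 164 and 196 CPM. Il1r1, the signalling receptor of interleukin 1, was hardly counted in macrophages, at 4 and 3 UMIs, and stood at 14.7 and 13.3 CPM in CD45-negative cells.

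Genes whose levels followed the members most closely over 28 points (classes in both libraries, which share their free RNA and depth) were named without a test. For Il1b they were Mcl1, Gpr35 and Mefv, with Pearson r from 0.974 to 0.977 on log2(CPM + 1). Il1rn was closest to Mefv, Ccrl2 and Emilin2 (0.971 to 0.983), and Cxcl2 to Cebpb, Ier3 and Cd14 (0.949 to 0.958). Il18 had a pattern apart from these, closest to Rnpep, Rab5c and Slc31a1 (0.929 to 0.935). Within macrophages thinned to equal depth, Cxcl2 was found in 15.3% of WT cells with an Il1b UMI and 6.51% of those without, and in 25.5% and 13.3% in the library labelled Siah2-/-. Il18 had no such excess, at 7.30% and 9.83% in WT and 7.10% and 7.40% in the library labelled Siah2-/-.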

How the data were processed

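UMI counts per gene and barcode were deposited by the authors as unfiltered matrices and as a raw count table. Per the paper's methods the authors made them with bcl2fastq and Cell Ranger on mm10/GRCm38 (versions not given in the sources used here), collapsed PCR copies, and removed cells with extreme numbers of detected genes or many mitochondrial transcripts. Removal of the extremes was their treatment of doublets, and no doublet caller was run here. The deposited table of natural log values only gave the list of cells analysed. The table of raw counts held 14654 genes and 4524 WT and 5576 Siah2-/- cells, of which 4512 and 5563 were in both tables. The cells analysed held 64793053 and 59090284 UMIs, and no cell had fewer than 6670 in WT and 4896 in Siah2-/-.

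Cells were gated on summed marker UMIs per 10000 UMIs (macrophage list at least 32, T and NK lists at least 4, DC list at least 8), with Python 3.11.15, numpy 2.4.6, scipy 1.17.1 and pandas 2.3.3. UMIs were summed per class and given as CPM with exact Poisson intervals, ratios with exact conditional binomial intervals, and shares of cells with exact (Clopper-Pearson) binomial intervals, after thinning to 2000 UMIs. A gene was counted past 2-fold where its interval left out 0 and both libraries together held at least 20 UMIs. Free RNA was read from barcodes with 10 to 100 UMIs. All members were named. Pathway genes were named where past 2-fold in macrophages (Pycard, Il18bp and Il1r1 were added after their values were seen), and the 3 most similar genes by Pearson r among those with at least 50 CPM in a class. Gene positions are from GENCODE and promoter sequences from RefSeq, GRCm38.p6. Members, lists, motif and gates were chosen with earlier results of these data known, and the Foxp3 split, the WT state weights and the neutrophil-marker barcodes after these values were seen. A further macrophage state is not reported here.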

Additional observations from a re-analysis of the deposited data

Results flagged for a closer look

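Il1a differed in direction between classes under the same comparison. Its log2 ratio of the library labelled Siah2-/- over WT was −1.81 (−3.50 to −0.48) in resident-like macrophages, from 45 and 5 UMIs of which 1 cell held 15 and 3, and 2.47 (1.65 to 3.42) in C1q-low other myeloid cells, from 13 and 135 UMIs, 50 of the 135 in 1 cell. With classes from clusters the latter ratio was 0.67. Il18 likewise read −0.59 (−1.02 to −0.17) in cycling macrophages, from 187 and 64 UMIs, and 0.86 (0.52 to 1.20) in C1q-low other myeloid cells, from 94 and 319, but the latter was −0.058 among all barcodes with at least 1000 UMIs. With 1 library per genotype these differences between classes were not tested.

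Barcodes led by neutrophil markers, most of them outside the cells analysed, held a strong chemokine signal. Among all barcodes with at least 1000 UMIs, 29 WT barcodes (0.288%, 0.193 to 0.413) and 74 labelled Siah2-/- (0.776%, 0.610 to 0.974) were led by neutrophil markers, with medians of 1327 and 1544.5 UMIs. Of the 74, 8 were among the cells analysed. Cxcl2 reached 22292 CPM (21617 to 22983) in those labelled Siah2-/- and 9071 (8259 to 9941) in WT. They held 19.8% and 8.77% of all Cxcl2 UMIs of such barcodes, and 40.4% and 41.7% of the Cxcl3 UMIs. Il1b stood at 7616 and 9804 CPM, Il1r2 at 901 and 2535, Il1rn at 2531 and 753, and Il1a at 362 and 19.8, the latter from 1 UMI. In the 66 barcodes labelled Siah2-/- outside the cells analysed, Cxcl2 was at 33901 CPM and Il1b at 10338, so that the order of the libraries for Il1b depended on those 8 cells.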

How the results depend on the processing

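Of 553 ratios under other settings, 463 stayed within the counting interval of the reported value, 82 moved outside it and 8 turned direction where the reported interval left out 0. A further 26 ratios whose reported interval held 0 also changed sign. Of 560 levels and shares, 285 stayed within the reported interval and 275 moved outside it. For macrophages the log2 ratio of Il1b ranged from 0.68 to 1.07, Il1rn from 0.74 to 1.08, Il1r2 from 1.05 to 1.30, Cxcl2 from 0.72 to 1.65 and Nlrp3 from 0.70 to 0.98. The number past 2-fold in macrophages was 2 with WT state weights, chosen after seeing the data. Il1b and Il1a, below 2-fold as reported there, reached 1.07 and 1.26 under other settings. In C1q-low monocyte-like cells it was 0 with the lowest WT UMI count in both libraries, 1 among barcodes with at least 1000 UMIs and 1 with classes from clusters. In DC it was 3 with the lowest WT UMI count and with classes from clusters. In T cells it was 2 with stricter gates, 1 with free RNA subtracted and 2 as a mean of cells. In NK cells it was 5 among barcodes with at least 1000 UMIs and 1 with free RNA subtracted, and in CD45-negative cells 0 with free RNA subtracted. Among barcodes with at least 1000 UMIs, the log2 ratio of Il18 in C1q-low other myeloid cells turned to −0.058, the log2 ratio of Il18 in C1q-low monocyte-like cells to −0.0087 and the log2 ratio of Cxcl1 in CD45-negative cells to 0.14. With classes from 26 clusters, Il1rn (−0.29), Il18 (−0.62) and Cxcl2 (−0.46) turned in C1q-low monocyte-like cells, of which 13 WT cells were left, and Cxcl2 in DC to −1.31. Stricter gates turned Il1r2 in DC to −0.26. Clusters and gates put 64.5% of cells in the same class. A gene at 0 in WT gives no ratio with free RNA subtracted or as a mean of cells, so Cxcl3 leaves the T cell counts there for that reason, as Cxcl2 does in T and CD45-negative cells with subtraction. Other causes were not tested. Cxcl3, and Il1a and Cxcl1 in most classes, rest on few UMIs, and unthinned shares also differ with library depth.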
